A study of Mus musculus with 9 samples.

Results

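Epithelial cells of the submandibular gland (SMG) are held together and oriented by 40 genes examined here, 10 claudins, 7 other tight junction genes, 6 adherens junction genes, 8 desmosome genes, 3 connexins of gap junctions and 6 polarity genes, out of 17562 rows in the normalized expression table. They were chosen by name, and all 40 were found. At the RNA level most of them differed little between wildtype (WT) and *Hs3st3a1*;*Hs3st3b1* double-knockout (DKO) glands. Of the 38 that passed the filter on low counts, 34 had a 95% interval within a 2-fold difference, beside 77.8% of all 13842 rows tested. In edgeR's test 11 of the 38, 28.9%, had an unadjusted p under 0.05, beside 14.5% of all rows. The median log2 fold change of the 38 was 0.00, beside 0.01 over all rows. Of the 38, 19 were higher in DKO, where 52.5% of all rows were. The exceptions that stood out most were *Gjb1*, which was higher, and *Cldn7* and *Dsc2*, which were lower.

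The study asked how 3-*O*-sulfated heparan sulfate, a modified sugar chain of the basement membrane and the cell surface, shapes the SMG and its acinar cells, whose polarity was among the features it examined. RNA was sequenced from whole glands of adult male mice with 1 library per mouse, 4 WT and 5 DKO. The DKO mice are on a C57BL/6 background and carry a targeted *Hs3st3b1* allele with, on the same chromosome, a nuclease-made frameshift deletion in exon 1 of *Hs3st3a1*. Both alleles are constitutive rather than limited to a cell type, and the age in weeks was not given in the sources used here. In whole glands, fewer cells of a type and less RNA per cell cannot be told apart.

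Tight junctions seal the space between neighbouring epithelial cells, and their claudin strands set which ions pass. Adherens junctions and desmosomes tie cells together through cadherins that are linked to actin or to keratin filaments, while gap junctions are channels of connexins that let small molecules pass from cell to cell. Polarity complexes set the border between the apical side of a secretory cell, which faces the lumen, and its basolateral side.

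Libraries held 17053747 to 37870519 counts, and pairwise correlations of log2(CPM + 1) between libraries, across genes, lay between 0.95 and 0.99. In WT, *Hs3st3a1* had 3 to 14 counts, with 0 in each DKO library, and *Hs3st3b1* had 67 to 216 counts in WT and 7 to 45 in DKO, where the position of the remaining reads within the gene was not tested. The 7 acinar markers summed to 197891 to 294717 CPM (counts relative to the TMM-scaled library size) in WT and 307701 to 547072 CPM in DKO, and none of the list was near 0. *Mucl2* and *Car6* held most of this sum. All 7 had positive log2 fold changes. *Pip*, *Car6* and *Ceacam1* were higher in DKO without overlap, while *Aqp5*, *Bhlha15*, *Lpo* and *Mucl2* overlapped. In the same libraries 6 markers of striated and excretory ducts summed to 410.3 to 499.6 CPM in WT and 246 to 365 CPM in DKO. *Krt7* (209 to 260 CPM in WT) and *Scnn1b* (171 to 216) held most of this sum. With *Krt19* they were lower in DKO without overlap, while *Slc5a5*, *Ascl3* and *Foxi1* overlapped. The 8 granular duct markers summed to 28672 to 66254 CPM in WT and 4447 to 22511 CPM in DKO, mostly *Klk1b26*. Of these, 6 were lower without overlap, while *Ren1* and *Cftr* overlapped, *Cftr* at a log2 fold change of 0.34. For 7 myoepithelial cell (MEC) markers the sums were 701 to 1124 and 273 to 628 CPM. DKO replicate 1 stood apart with 8070 CPM of parotid gland markers. The other libraries had 24.4 to 48.4 CPM in WT and 57.4 to 92.3 CPM in DKO, so every DKO sum lay above every WT sum. This came from *Bpifa2*, at 4.42 to 26.5 CPM in WT and 43.3 to 79.1 CPM in DKO replicates 2 to 5. In the same libraries *Amy1* went the other way, with 17.3 to 25.5 CPM in WT and 7.10 to 14.1 CPM in DKO. *Prpmp5* and *Prb1* had at most 0.645 CPM in any library. Sublingual gland markers reached 26.2 to 106 CPM in WT replicate 3 and DKO replicates 1, 2 and 4 against at most 5.15 CPM elsewhere. Leukocyte, endothelial, adipocyte, skeletal muscle and basal duct markers had summed ranges that overlapped between WT and DKO, as did the 5 fibroblast markers, all 5 of which had negative log2 fold changes. On the skeletal muscle list *Acta1* alone did not overlap and passed edgeR, at 0.994 to 5.22 CPM in WT and 0.0916 to 0.508 CPM in DKO (log2 fold change -3.65, adjusted p = 0.0385).

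Promoter windows from RefSeq (GRCm38.p6, 250 bases before to 50 after a start site) were matched by symbol for 26 of the 40 genes, in 40 windows. The letters CACCTG, read on either strand, are the E-box that repressors of the Snail and Zeb families are known to bind in epithelial genes. They were present in at least 1 window of 15 of these 26 genes, 57.7%, against 22.6% of all 27025 genes in the table, and in 47.5% of the members' windows against 20.2% of all windows. The GC box GGGCGG, either strand, which may share an end base with the E-box, was in a window of 22 of the 26 genes, 84.6%, against 38.2% of all genes. The grainyhead motif AACCGGTT was in none of the members' windows and in 0.146% of all windows. A match describes the letters of a window and shows no binding. Sequences follow for *Gjb1*, *Gjb2*, *Cldn7* and *Epcam*, whose values are described in detail, and for *Cldn10*, the most abundant member, with E-boxes in capitals. The window of *Gjb1* lies at chrX:101383482-101383781 (plus strand), where it is 1 of 4 windows and the single one with an E-box. That of *Cldn7* lies at chr11:69965171-69965470 (plus), where it is 1 of 2 windows and likewise the single one with an E-box. The windows of *Gjb2* and *Epcam* lie at chr14:57104653-57104952 (minus) and at chr17:87635729-87636028 (plus).
Gjb1: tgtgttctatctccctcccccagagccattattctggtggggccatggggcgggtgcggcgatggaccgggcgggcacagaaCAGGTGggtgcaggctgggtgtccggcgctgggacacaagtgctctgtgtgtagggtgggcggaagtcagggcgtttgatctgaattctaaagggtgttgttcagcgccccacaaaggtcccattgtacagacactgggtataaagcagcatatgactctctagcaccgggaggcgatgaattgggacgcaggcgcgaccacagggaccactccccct
Gjb2: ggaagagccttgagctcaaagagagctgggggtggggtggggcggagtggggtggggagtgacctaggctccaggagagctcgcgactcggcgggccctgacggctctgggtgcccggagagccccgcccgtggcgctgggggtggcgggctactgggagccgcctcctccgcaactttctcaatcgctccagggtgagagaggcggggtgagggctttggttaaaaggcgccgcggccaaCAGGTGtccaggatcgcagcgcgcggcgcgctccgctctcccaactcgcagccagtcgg
Cldn7: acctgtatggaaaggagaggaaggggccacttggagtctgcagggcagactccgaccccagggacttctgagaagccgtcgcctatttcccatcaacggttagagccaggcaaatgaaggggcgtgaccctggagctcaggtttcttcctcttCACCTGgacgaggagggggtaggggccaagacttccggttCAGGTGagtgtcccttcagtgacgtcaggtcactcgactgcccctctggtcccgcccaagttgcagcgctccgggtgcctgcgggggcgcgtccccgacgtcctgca
Epcam: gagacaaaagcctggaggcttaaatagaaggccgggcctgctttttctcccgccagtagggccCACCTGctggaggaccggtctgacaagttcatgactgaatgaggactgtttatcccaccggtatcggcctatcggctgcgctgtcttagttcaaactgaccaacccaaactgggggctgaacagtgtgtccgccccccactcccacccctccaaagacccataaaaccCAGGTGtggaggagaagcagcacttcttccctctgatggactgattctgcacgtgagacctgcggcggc
*Cldn10* has 2 windows, at chr14:118787621-118787920 and chr14:118854700-118854999 (both plus), with no E-box in either. They belong to alternative first exons, which give claudin isoforms of different ion selectivity, and the counts used here sum over them. The upstream window has a GC content of 36.0% and the downstream one 72.0%.
Cldn10 upstream: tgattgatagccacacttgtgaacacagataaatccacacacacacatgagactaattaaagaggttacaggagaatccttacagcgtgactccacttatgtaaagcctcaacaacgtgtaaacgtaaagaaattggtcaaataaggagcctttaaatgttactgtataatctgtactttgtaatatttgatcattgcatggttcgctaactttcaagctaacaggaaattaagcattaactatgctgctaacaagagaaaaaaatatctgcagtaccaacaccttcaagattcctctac
Cldn10 downstream: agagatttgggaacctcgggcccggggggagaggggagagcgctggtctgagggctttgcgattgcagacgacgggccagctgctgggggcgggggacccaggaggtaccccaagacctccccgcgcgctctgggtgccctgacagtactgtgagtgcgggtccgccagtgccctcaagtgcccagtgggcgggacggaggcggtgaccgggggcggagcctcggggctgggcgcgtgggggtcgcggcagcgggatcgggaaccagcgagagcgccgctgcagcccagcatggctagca

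Levels were compared between genes as CPM per kb of merged exons. *Cldn10*, which codes for a pore-forming claudin, had the highest level of the 40 genes in WT, 204 CPM per kb. It was followed by *Perp*, a desmosome-associated membrane protein, at 109, by *Epcam*, an adhesion molecule that is known to bind claudin 7, at 78.8, by *Cldn3* at 57.0 and by *Cldn7* at 47.9 CPM per kb. At the other end, *Cldn2* and *Cldn6* had at most 8 and 7 counts in any library and did not pass the filter. The polarity scaffolds *Pard3* and *Pard6b* had 0.438 and 0.296 CPM per kb in WT, while *Crb3*, the small apical Crumbs protein of epithelia, led the polarity genes at 25.2.

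**Figure D1:**
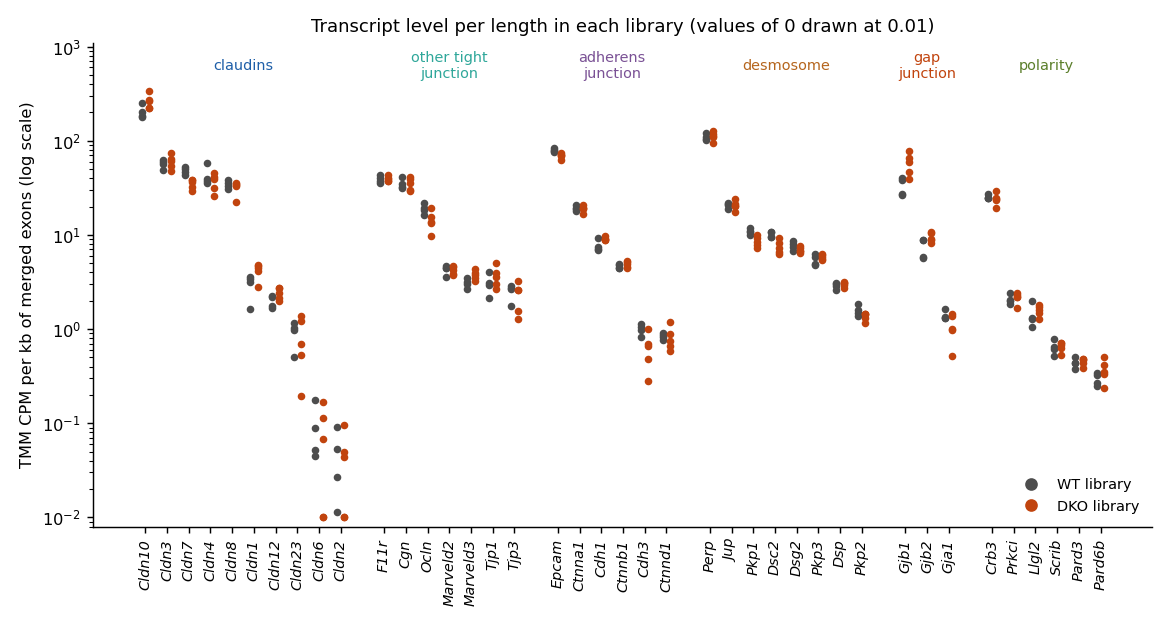
Level of each of the 40 genes in TMM CPM per kb of merged exons (log axis) in each WT library (grey) and each DKO library (orange), grouped by subgroup and ordered by the WT mean. *Cldn10* lies above all others at 204 CPM per kb in WT, and the WT and DKO points of nearly all genes lie in the same range.

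To ask which of these genes differed between the genotypes, the 2 groups were tested with edgeR's quasi-likelihood method and p-values were adjusted over all rows tested. It called 0 of the 38 members at an adjusted p under 0.05, where it called 0.629% of all rows, and the lowest adjusted p of a member was 0.0709. At an unadjusted p under 0.05 there were 11 members, 28.9% of those tested beside 14.5% of all rows. Of these 6 were higher, as were 6.89% of all rows, and 5 lower, as were 7.60%. DESeq2's Wald test called 3 members, *Gjb1*, *Cldn7* and *Dsc2*, 7.89% beside 4.34% of the rows it tested, and limma-voom called 0 beside 1.07%. Without DKO replicate 1, DESeq2 called *Gjb1* and *Cldn7*. All DKO libraries lay outside the WT range for 3 members, *Cldn7*, *Dsc2* and *Epcam*, 7.89% of those tested beside 6.00% of all rows. All 3 were lower, a direction that 3.51% of all rows shared. Without DKO replicate 1 the same 3 of the 38 members, 7.89%, had no overlap, beside 8.21% of all rows tested there.

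The precision of the estimates sets what these libraries could show. Standard errors of the members' log2 fold changes lay between 0.09 and 0.44 with a median of 0.13. The 95% interval lay within a 2-fold difference in either direction for 34 of the 38 members, 89.5% beside 77.8% of all rows, and within 1.5-fold for 22, beside 46.8% of all rows. The 4 whose interval reached past 2-fold were *Gjb1*, *Cldn1*, *Cdh3* and *Cldn23*.

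**Figure D2:**
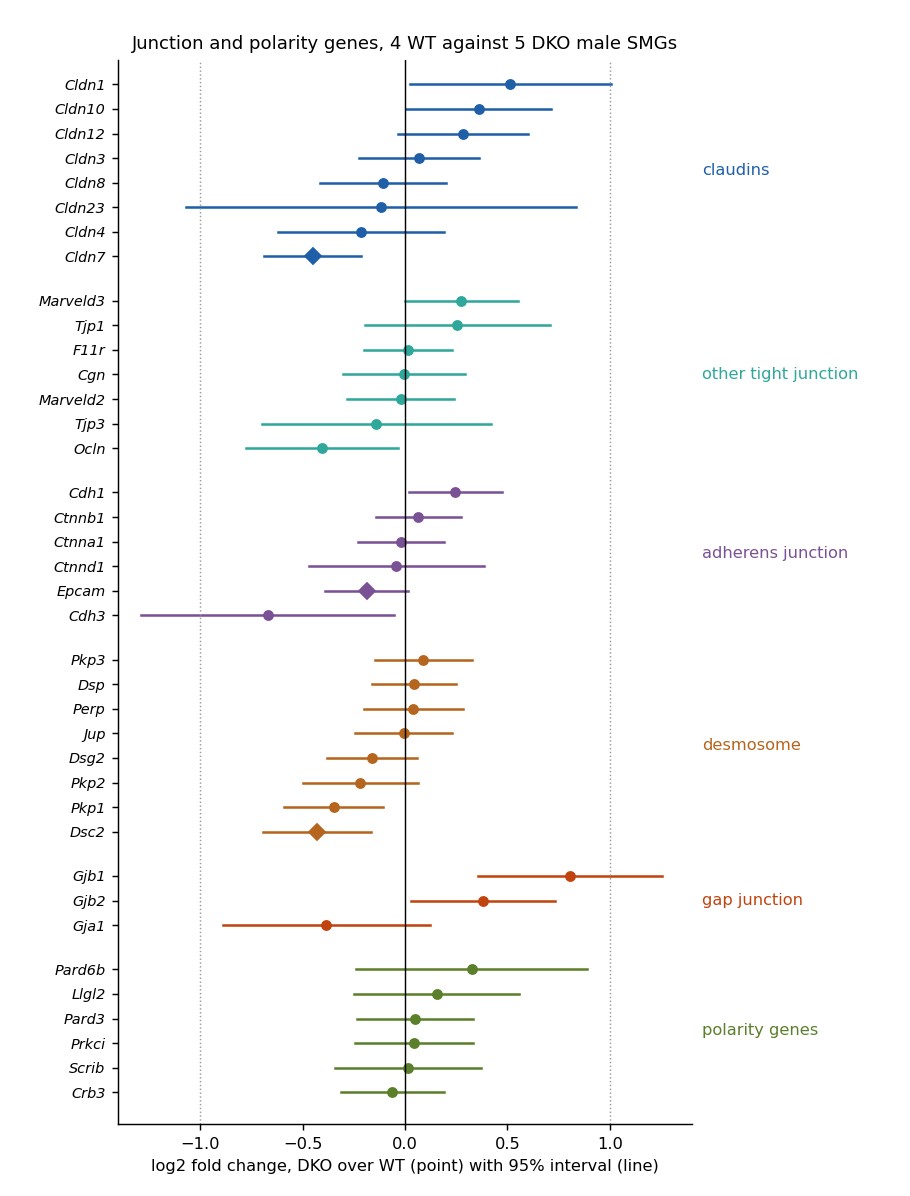
Log2 fold change, DKO over WT, of the 38 members that passed the filter, with the 95% interval from edgeR's quasi-likelihood fit as a line, by subgroup. Diamonds mark the 3 genes whose WT and DKO libraries do not overlap, and dotted lines mark 2-fold. Most points lie close to 0, with *Gjb1* at 0.81 and *Cdh3* at -0.67 farthest out.

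Gap junction genes had the largest spread of the 6 subgroups. *Gjb1* (ENSMUSG00000047797, X chromosome) codes for connexin 32, the connexin that is known from liver and from exocrine acinar cells. It measured 46.3, 68.6, 44.9 and 65.2 CPM in WT replicates 1 to 4 and 78.8, 103, 132, 67.3 and 112 CPM in DKO replicates 1 to 5. Of the DKO libraries, 4 lay above all WT libraries, and DKO replicate 4 lay just under WT replicate 2. The log2 fold change was 0.81 (standard error, SE, 0.21, 95% interval 0.36 to 1.26), with an adjusted p of 0.0834 by edgeR, 0.00645 by DESeq2 and 0.111 by limma-voom. A two-sided exact permutation test, with 126 assignments of the libraries to the genotypes, gave p = 0.0238, where the smallest it can give is 0.00794. This test was run for each of the 38 members and is given unadjusted.

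The order of the libraries by *Gjb1* was also their order by summed acinar markers within each genotype, replicates 2, 4, 1 and 3 in WT and 3, 5, 2, 1 and 4 in DKO. Per 100000 CPM of acinar markers, *Gjb1* measured 22.2, 23.3, 22.7 and 24.5 CPM in WT and 23.6, 24.2, 24.1, 21.9 and 22.3 CPM in DKO, ranges that lie over each other. *Mucl2* alone made up 51.1% to 62.9% of the acinar sum. With the geometric mean of the 7 markers, in which each gene weighs the same, the ratio averaged 0.0219 ± 0.00217 over the WT libraries and 0.0242 ± 0.0025 over the DKO libraries (± SD), and the groups again overlapped. Per 100 CPM of the other marker sums *Gjb1* was higher in DKO without overlap, at 9.27 to 15.9 CPM in WT and 18.5 to 53.7 CPM in DKO for striated and excretory ducts and 4.12 to 9.78 and 10.7 to 48.3 CPM for MECs. The lists set beside the members were picked after the values were seen, and the ratios carry no test. The acinar sums were higher in DKO and the striated and excretory duct and MEC sums lower, each without overlap. A gene at the same level in both genotypes would thus be lower per acinar sum and higher per duct or MEC sum. This holds for *Gjb1* and for the members below.

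*Gjb2*, for connexin 26, which pairs with connexin 32 in acinar gap junctions, measured 17.5 ± 4.23 CPM over 4 WT libraries and 22.7 ± 2.71 CPM over 5 DKO libraries (± SD), at a log2 fold change of 0.38 with SE 0.16 and an adjusted p of 0.302. Per 100000 CPM of acinar markers it was lower in DKO without overlap, 6.60 to 7.90 CPM in WT and 4.37 to 6.37 CPM in DKO, while with the geometric mean of the markers the groups overlapped. Per 100 CPM of striated and excretory duct markers *Gjb2*, like *Gjb1*, was higher without overlap, 2.76 to 5.12 and 5.38 to 10.3 CPM. The same was true per 100 CPM of MEC markers, 1.23 to 3.05 and 3.12 to 9.25 CPM. *Gja1*, for connexin 43, which is known from MECs and from connective tissue, had a log2 fold change of -0.38 (SE 0.23, adjusted p = 0.501). The CPM ratio of *Gjb1* to *Gja1*, which does not depend on the scaling of the libraries, was 2.76 to 5.15 in WT and 6.73 to 20.8 in DKO. Likewise *Gjb1* over *Gjb2* was 3.10 to 3.36 in WT and 3.43 to 5.23 in DKO. Neither ratio overlapped between the genotypes, a description of ratios chosen with the values known. In the pool of the 3 connexins per kb, *Gjb1* held 79.1% ± 0.534 over 4 WT libraries and 84.1% ± 2.64 over 5 DKO libraries (± SD).

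Of the 10 claudins, 8 were tested, 4 higher and 4 lower, with a median log2 fold change of -0.02. *Cldn7* (ENSMUSG00000018569, chromosome 11 from 69964779 to 69967885), a claudin of the basolateral membrane and the tight junction, measured 101, 84.3, 98.1 and 89.8 CPM in WT and 74.1, 57.5, 63.6, 75.4 and 70.9 CPM in DKO. The groups did not overlap. The log2 fold change was -0.45 (SE 0.11, 95% interval -0.69 to -0.21), with an adjusted p of 0.0709 by edgeR, 0.00735 by DESeq2 and 0.0711 by limma-voom, and the exact permutation test gave p = 0.00794, the smallest it can give. Per 100 CPM of striated and excretory duct markers it measured 18.9 to 21.9 CPM in WT and 18.8 to 25.9 CPM in DKO, which overlapped, and per 100000 CPM of acinar markers 28.6 to 49.6 and 11.6 to 24.5 CPM, which did not. Per 100 CPM of MEC markers it was 9.01 to 12.0 CPM in WT and 12.0 to 23.3 CPM in DKO, with the lowest DKO library just under the highest WT library. With the geometric mean of the MEC markers the ratio was 0.919 to 1.287 in WT and 1.292 to 2.431 in DKO, narrowly without overlap.

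*Cldn10* (ENSMUSG00000022132, chromosome 14 from 118787908 to 118875489) measured 462, 653, 480.3 and 523 CPM in WT and 702, 684, 572, 575 and 868 CPM in DKO. WT replicate 2 lay above DKO replicates 3 and 4, so the groups overlapped. On the log2 scale the difference was 0.36 with SE 0.16 and an adjusted p of 0.333, and the exact permutation test gave p = 0.0635. Per 100000 CPM of acinar markers it measured 197 to 243 CPM in WT and 105 to 211 CPM in DKO, which overlapped. Per 100 CPM of striated and excretory duct markers it was higher in DKO without overlap, 92.5 to 147 CPM in WT and 158 to 297 CPM in DKO. Per 100 CPM of MEC markers the groups overlapped, at 41.1 to 93.2 and 91.5 to 233 CPM.

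*Cldn1* had a log2 fold change of 0.52 (SE 0.22, adjusted p = 0.317), *Cldn12* 0.28 (0.14, 0.407) and *Cldn3*, a sealing claudin, 0.07 (0.13, 0.876). *Cldn8* and *Cldn4*, which are known from ducts and other ion-transporting epithelia, had -0.11 (0.14, 0.802) and -0.21 (0.19, 0.674). *Cldn3* shares exon sequence with an overlapping gene on unstranded libraries, so reads of both cannot be told apart.

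Per kb, *Cldn10* made up 45.5%, 59.9%, 49.1% and 53.3% of the claudin pool in WT and 61.9%, 64.6%, 54.7%, 54.9% and 65.2% in DKO. *Cldn7* made up 12.3% ± 1.42 over 4 WT libraries and 8.13% ± 1.04 over 5 DKO libraries (± SD), without overlap between the ranges of 10.3% to 13.3% and 7.09% to 9.58%. *Cldn3* over *Cldn7* in CPM was 0.734 to 0.801 in WT and 0.906 to 1.47 in DKO. These shares were not tested, since the members were compared one by one above.

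**Figure D3:**
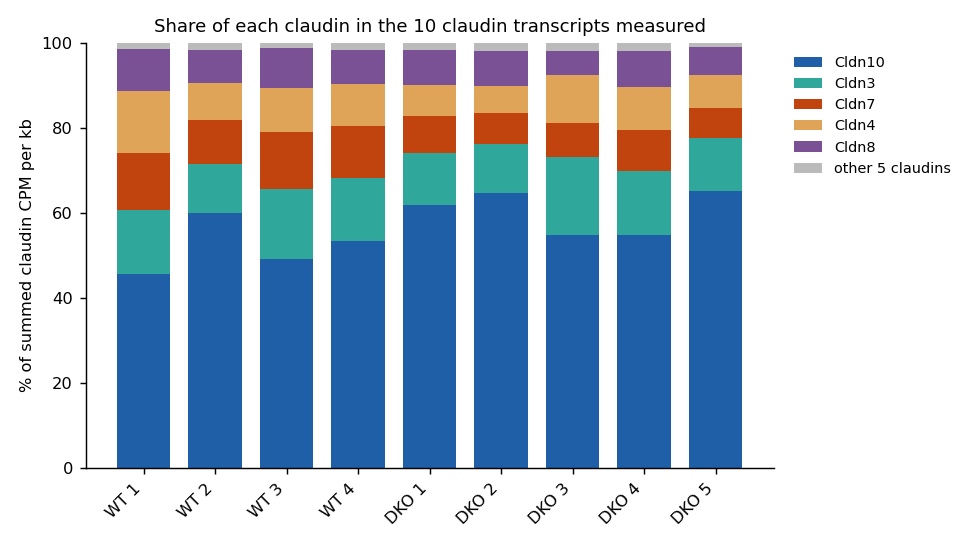
Share of each claudin in the summed CPM per kb of the 10 claudins, in percent, in each of the 9 libraries. *Cldn10* is the largest share in each library, 45.5% to 65.2%, and the share of *Cldn7* is 10.3% to 13.3% in WT and 7.09% to 9.58% in DKO.

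The 7 other tight junction genes code for the proteins beside claudins in the strands and for the scaffolds under them. Of these, 3 were higher and 4 lower, with a median log2 fold change of -0.01 and no groups without overlap. *F11r*, for the junctional adhesion molecule JAM-A, had the highest level of the subgroup per kb. It measured 98.5, 108, 114 and 94.5 CPM in WT and 99.5, 106, 105, 98.6 and 116 CPM in DKO, so the ranges lay over each other, with a log2 fold change of 0.02 (SE 0.10, 95% interval -0.20 to 0.23).

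*Tjp1*, for the scaffold ZO-1 that links claudins to actin, measured 16.7, 24.2, 31.8 and 23.0 CPM in WT and 28.0, 20.8, 39.4, 31.1 and 23.6 CPM in DKO. The highest value was in DKO and the lowest in WT, with the remaining libraries of both genotypes interleaved. The log2 fold change was 0.25 with a 95% interval of -0.20 to 0.71 (adjusted p = 0.647), an interval that holds both no difference and a 1.5-fold increase. *Ocln*, for occludin, went the other way with 80.0 ± 9.76 CPM over 4 WT libraries, 60.3 ± 14.6 CPM over 5 DKO libraries (± SD) and a log2 fold change of -0.41 (SE 0.17, adjusted p = 0.298), and 4 of its 5 DKO libraries lay under all WT libraries. Its relatives *Marveld2*, for tricellulin, and *Marveld3* had -0.02 and 0.28 (SEs 0.12 and 0.13), and the cingulin gene *Cgn* -0.01 (0.14). *Tjp3*, whose exons overlap those of *Apba3*, had -0.14 (SE 0.26).

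Among the 6 adherens junction genes, *Epcam* (ENSMUSG00000045394, chromosome 17 from 87635979 to 87651129) measured 182, 169, 165 and 176 CPM in WT and 157, 151, 136, 153 and 162 CPM in DKO. No DKO library reached the WT range, with a narrow margin between WT replicate 3 and DKO replicate 5. The log2 fold change was -0.19 (SE 0.09, 95% interval -0.39 to 0.02, adjusted p = 0.392). DESeq2 gave an adjusted p of 0.26 and the exact permutation test p = 0.0159.

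*Cdh1*, for E-cadherin, the main cadherin of epithelia, measured 31.2, 42.0, 33.9 and 32.8 CPM in WT and 40.0, 44.8, 41.7, 40.1 and 40.9 CPM in DKO. WT replicate 2 lay within the DKO range, and the other 3 WT libraries lay below it. The log2 fold change was 0.25 (SE 0.10, adjusted p = 0.302). *Epcam* over *Cdh1* in CPM was 4.03 to 5.81 in WT and 3.27 to 3.97 in DKO, which did not overlap.

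*Cdh3*, for P-cadherin, which is known from basal and myoepithelial cells, was the adherens gene with the lowest log2 fold change, -0.67 (SE 0.28, 95% interval -1.29 to -0.05, adjusted p = 0.3). It was at a low level, 4.37 ± 0.558 CPM over 4 WT libraries and 2.72 ± 1.16 CPM over 5 DKO libraries (± SD), and the summed MEC markers were lower in the same libraries. Whether MEC content accounts for the value was not tested. The catenin genes *Ctnna1*, *Ctnnb1* and *Ctnnd1*, whose proteins link cadherins to the cell interior, had -0.02, 0.07 and -0.04 (SEs 0.10, 0.09 and 0.20). All 3 overlap exons of other genes, which unstranded reads cannot separate.

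**Figure D4:**
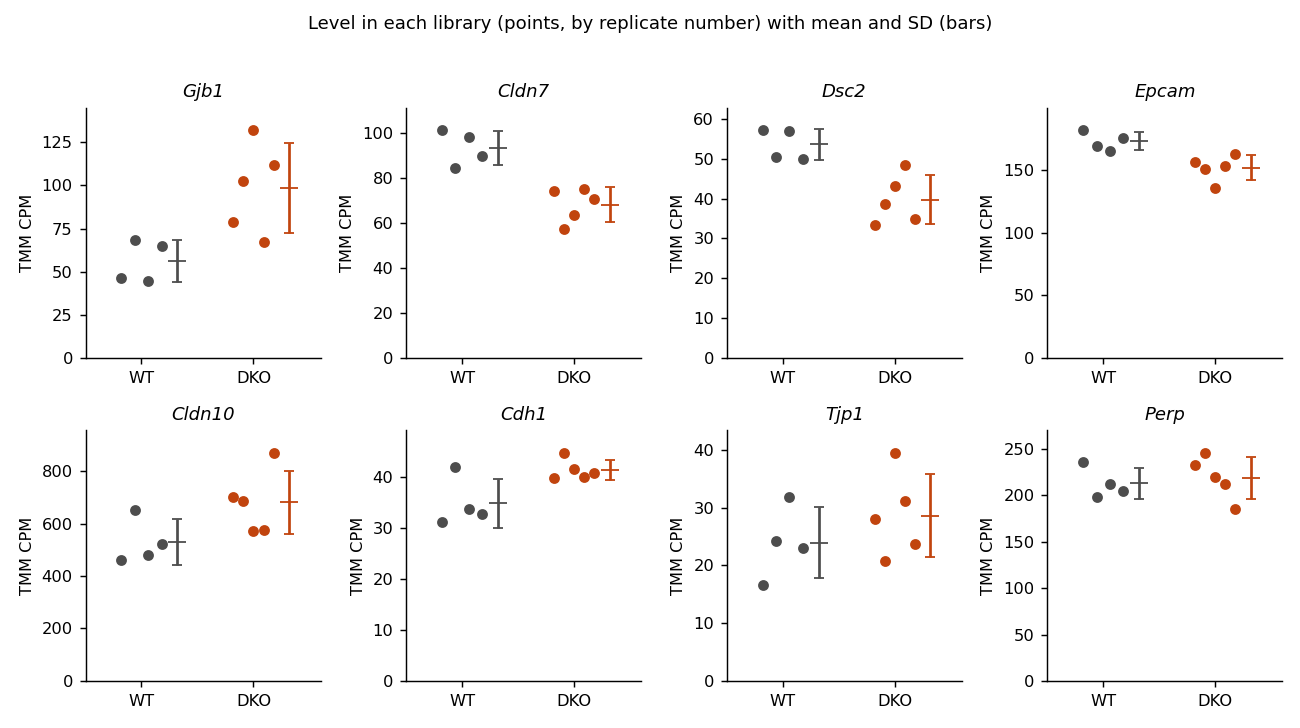
TMM CPM of 8 members in each library, WT in grey and DKO in orange, ordered by replicate number, with mean and SD beside the points. *Cldn7*, *Dsc2* and *Epcam* show no overlap between WT and DKO, *Gjb1* overlaps by 1 library, and *Perp* and *Tjp1* overlap broadly.

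In desmosomes, the cadherins *Dsg2* and *Dsc2* are tied by plakoglobin (*Jup*) and plakophilins to desmoplakin (*Dsp*) and so to keratin. Over the 8 genes the median log2 difference was -0.08, with 3 higher and 5 lower. *Dsc2* (ENSMUSG00000024331, chromosome 18) measured 57.1, 50.4, 56.9 and 50.0 CPM in WT and 33.4, 38.5, 43.2, 48.5 and 35.0 CPM in DKO. The groups did not overlap, and DKO replicate 4 was the closest to WT. The log2 fold change was -0.43 (SE 0.12, 95% interval -0.70 to -0.17), with an adjusted p of 0.114 by edgeR, 0.0419 by DESeq2 and 0.104 by limma-voom, and the exact permutation test gave p = 0.0159.

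The DESeq2 call of *Dsc2* rested on single libraries, being kept in 2 of 9 fits with a library left out, without DKO replicate 3 or 4. The calls of *Cldn7* and *Gjb1* were each kept in 7 of 9 fits and lost without WT replicate 1 or 3. Per 100 CPM of striated and excretory duct markers, *Dsc2* measured 11.3 to 12.2 CPM in WT and 10.5 to 17.6 CPM in DKO, so that the WT range lay within the DKO range. Per 100000 CPM of acinar markers it was lower in DKO without overlap, 17.1 to 28.7 CPM in WT and 6.98 to 15.8 CPM in DKO. Per 100 CPM of MEC markers it was higher without overlap, 5.08 to 7.19 and 7.72 to 15.8 CPM. Both sums themselves differed between the genotypes in the direction that shifts a ratio this way.

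*Pkp1*, for plakophilin 1, was next in the subgroup with 54.6 ± 3.60 CPM over 4 WT libraries, 42.9 ± 5.68 CPM over 5 DKO libraries (± SD) and a log2 fold change of -0.35 (SE 0.11, adjusted p = 0.168). *Pkp2* had -0.22 and *Dsg2* -0.16 (SEs 0.13 and 0.10). The linker genes were near 0, *Jup* at -0.01, *Dsp* at 0.05 and *Pkp3* at 0.09 (SEs 0.11, 0.09 and 0.11). Exons of *Dsg2* and *Dsp* overlap those of other genes, which unstranded reads cannot separate. *Perp*, the most abundant of them per kb, measured 236, 198, 212 and 205 CPM in WT and 232, 245, 219.6, 212 and 185 CPM in DKO, overlapping ranges with a log2 fold change of 0.04 (95% interval -0.20 to 0.28).

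**Figure D5:**
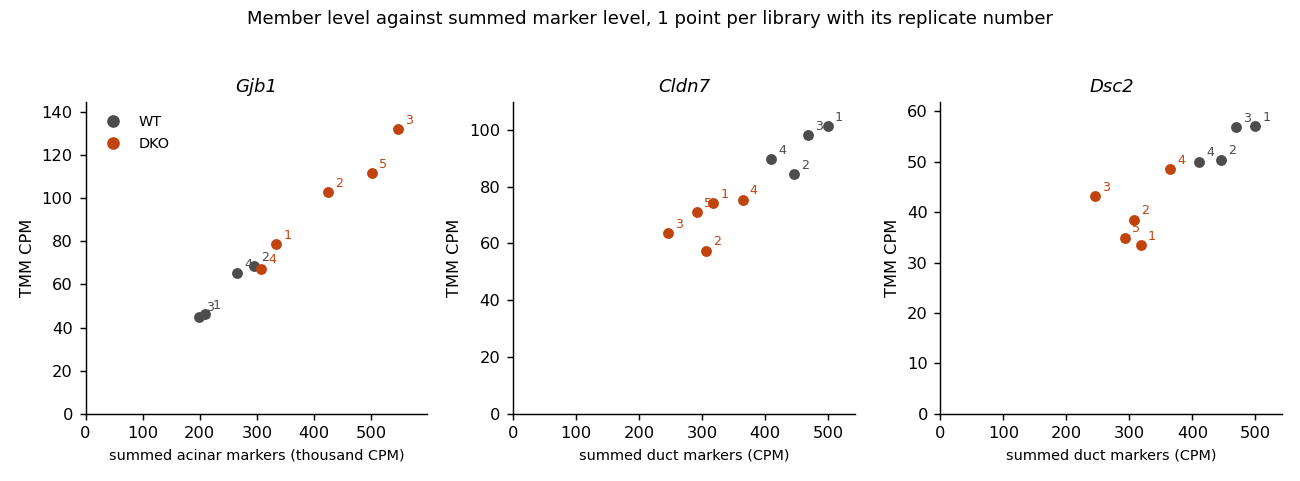
TMM CPM of *Gjb1* against the summed CPM of 7 acinar markers, and of *Cldn7* and *Dsc2* against the summed CPM of 6 striated and excretory duct markers, 1 point per library numbered by replicate. *Gjb1* lies between 21.9 and 24.5 CPM per 100000 CPM of acinar markers in the 9 libraries, and the DKO libraries have the lower duct sums in the other panels.

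None of the 6 polarity genes had an unadjusted p under 0.05 or groups without overlap. *Crb3* measured 42.5, 38.5, 38.5 and 38.1 CPM in WT and 38.4, 36.4, 30.4, 37.9 and 45.9 CPM in DKO, with the highest and the lowest value both in DKO. Its log2 fold change was -0.06 (SE 0.12, 95% interval -0.31 to 0.19), and its exons overlap those of *Dennd1c*. The Par complex genes *Pard3*, *Pard6b* and *Prkci*, which define the apical domain, had 0.05, 0.33 and 0.04 (SEs 0.13, 0.26 and 0.13). The basolateral genes *Llgl2* and *Scrib* had 0.16 and 0.02 (SEs 0.18 and 0.16). The 95% interval lay within 2-fold for all 6 and within 1.5-fold for 5.

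A further 85 junction and polarity genes outside the 40 were read to set them in their pathway, and 57 passed the filter, 20 higher and 37 lower, with a median log2 fold change of -0.11. The edgeR test called 0 of them and limma-voom 0, with 11 at an unadjusted p under 0.05, 19.3% of those tested beside 14.5% of all rows. DESeq2 called *Ctnnal1*, *Jam2* and *Ezr*, all lower, 5.26% beside 4.34%. With a library left out the DESeq2 call of *Ezr* was kept in 1 of 9 fits, without DKO replicate 1, that of *Ctnnal1* in 7 (lost without WT replicate 1 or 3) and that of *Jam2* in 6 (lost without WT replicate 1, 3 or 4). Groups did not overlap for 6 of the 57, 10.5% beside 6.00% of all rows. *Ctnnal1*, for an alpha-catenin-like protein, measured 40.8, 28.1, 42.5 and 28.2 CPM in WT and 21.5, 20.6, 12.6, 18.0 and 24.8 CPM in DKO, a log2 fold change of -0.84 (SE 0.19, adjusted p = 0.0625 by edgeR and 0.00341 by DESeq2).

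*Jam2*, for an adhesion molecule of endothelium and other cells, measured 37.4, 24.3, 30.3 and 32.3 CPM in WT and 24.0, 21.2, 20.6, 20.2 and 22.1 CPM in DKO (log2 fold change -0.52, SE 0.12). *Ezr*, for ezrin, which links the apical membrane to actin, measured 24.6, 27.7, 28.0 and 27.9 CPM in WT and 24.2, 21.3, 17.0, 20.4 and 18.1 CPM in DKO (-0.42, SE 0.12). For both, no DKO library reached the WT range, and DKO replicate 1 came closest. The vinculin gene *Vcl* measured 5.62, 4.74, 7.36 and 5.19 CPM in WT and 3.54, 4.15, 4.26, 4.07 and 3.05 CPM in DKO (-0.59, SE 0.17).

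*Nectin2* measured 18.5, 18.7, 18.3 and 20.7 CPM in WT and 17.5, 15.7, 13.3, 16.8 and 16.3 CPM in DKO (-0.26, SE 0.11), the last of the genes that were lower without overlap. *Esam*, an endothelial adhesion gene, was the single one that was higher, 8.66 to 10.5 CPM in WT and 10.6 to 12.5 CPM in DKO (0.25, SE 0.11). The 5 endothelial markers summed to 20.8 to 29.1 CPM in WT and 27.9 to 32.4 CPM in DKO, and their part in this value was not tested. Of these markers, 4 had positive log2 fold changes, *Kdr* alone without overlap, while *Vwf* had -0.49. Of 14 transcription factors known to set epithelial junction genes, 12 were tested, 4 higher and 8 lower with a median log2 fold change of -0.11, and none was called by edgeR or DESeq2 or had groups without overlap.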

How the data were processed

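RNA from male SMGs was read from 3 tables with a column per library. The authors deposited raw counts of 48733 rows without normalization, the same counts for 17562 filtered rows, and signal values, which are these counts divided by 1 TMM factor per library. All 158058 of these values gave back whole counts within 0.001. Per the labels, libraries were made with an unstranded Nextera XT kit, and the submitters' processing notes name STAR 2.5.2a, DESeq2, edgeR, limma and the builds GRCm38 (mm10) and GRCh38 with no role given. How reads of overlapping genes were assigned is not given in the sources used here. Total counts per library were 17053747 to 37870519, which limits the precision of genes with few counts, and intervals cover the spread between mice as well as counting error.

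Raw counts were tested in R 4.3.3 with edgeR 4.0.16 (TMM, filterByExpr with minimum count 10 and total 15, 13842 rows left, quasi-likelihood test, genotype as the single term, Benjamini-Hochberg adjustment). The 95% intervals used a t quantile on 11.71 degrees of freedom. DESeq2 1.42.0, the test of the study's methods, and voom of limma 3.58.1 with quality weights were run beside it. The common biological coefficient of variation was 0.235. Exact permutation tests used log2(CPM + 0.1). Scripts were tested on simulated data. Lengths and positions came from GENCODE M21 (GRCm38).

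The members, the subgroups, the lists of markers and of other junction genes and the rule for named genes were chosen with earlier results of these data known. Values in every library are given for members that passed edgeR or DESeq2, whose groups did not overlap or that had the highest level per kb in their subgroup, and for *Tjp1*, *Cdh1* and *Cldn10*. Other junction genes are named if they passed either test or did not overlap, at most 15. Of the lists, 2 symbols were not found. The alternatives changed the scaling, the tool, the filter, the table and the libraries, 1 choice at a time, and 9 DESeq2 fits with a library left out were added after the data were seen, as were the overlap without DKO replicate 1 and the ratios within libraries.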

Additional observations from a re-analysis of the deposited data

Results flagged for a closer look

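In 76 groups of member values (38 genes in WT and in DKO), the highest or lowest library lay farther from the rest than Dixon's 95% limit in 5, and chance flags about 1 in 20. WT replicate 1 was high for *Cldn4* (104 CPM against 65.3 to 71.4 in the other WT libraries), for *Gja1* (16.8 against 13.3 to 13.7) and for *Crb3* (42.5 against 38.1 to 38.5). DKO replicate 3 was low for *Cldn8* (52.2 CPM against 78.5 to 84.8 in the other DKO libraries) and for *Prkci* (9.26 against 12.1 to 13.3). WT replicate 1 also had the highest sum of granular duct markers, 66254 CPM, and DKO replicate 3 the lowest, 4447 CPM. The part of this in the 5 values was not tested.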

How the results depend on the processing

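The edgeR test called 87 of all rows and 0 of the members and of the 85 other junction genes. These 3 counts were 357, 2 and 2 with total count scaling, 611, 3 and 3 with DESeq2, 347, 1 and 1 with no filter on low counts, 148, 0 and 0 with limma-voom, and 5, 0 and 0 with TMM without the 20 most abundant genes. With DESeq2 size factors, the newer edgeR fit, the stricter filter and the filtered table, the members called stayed at 0. With a library left out, edgeR called 0 to 441 of all rows, 0 to 3 members (3 without DKO replicate 4, *Cldn7*, *Dsc2* and *Gjb1*) and 0 to 2 other genes (2 without WT replicate 2), and DESeq2, added after the data were seen, called 262 to 883 rows, 0 to 6 members and 0 to 3 other genes. The replicate block over replicates 1 to 4 gave 0, 0 and 0. The numbers follow the order of deposit and the labels give no pairing. Same-numbered libraries correlated in their deviations at 0.15, 0.30, 0.07 and 0.01, with replicates 1 and 2 the highest among all pairs of a WT and a DKO library, and whether those mice shared a litter or batch was not tested.

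The members' median log2 fold change, 0.00, was -0.29 with total count scaling, which moved the median of all rows to -0.28, so relative to all rows the members stayed in place, and it moved by less than the spread between replicates in the other alternatives. That shift alone turns small positive log2 fold changes negative, so the negative values it gave for *F11r* (-0.29), *Perp* (-0.25), *Tjp1* (-0.054), *Cdh1* (-0.051) and *Esam* (-0.050) say nothing about these genes in particular. With a library left out, *F11r* lay between -0.028 and 0.068, *Perp* between -0.0024 and 0.098 and *Crb3* between -0.14 and 0.0080 (DESeq2 included), and the replicate block gave -0.018 for *F11r*. *Gjb1*, *Cldn7*, *Dsc2*, *Epcam* and *Cldn10* kept their direction in every alternative run. *Cldn10* had the highest level in CPM and per kb. Depth limits *Cldn2* and *Cldn6*, which at 8 and 7 counts at most could not be tested.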
